A study of Arabidopsis thaliana with 6 samples.

Results

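Heat shock factors (HSFs) are the transcription factors that switch on heat shock protein genes, and 10 of their genes were examined for H3K9Ac in *ein2-5* seedlings of *Arabidopsis thaliana*. The 10 genes were HSFA1A, HSFA1B, HSFA1D, HSFA1E, HSFA2, HSFA3, HSFA4A, HSFB1, HSFB2A and HSFB2B, listed by their locus codes, out of 27444 protein-coding genes on the nuclear chromosomes. A gene was taken to carry a peak when a peak overlapped its body or the 500 bp upstream of its transcription start site (TSS) by at least 1 bp. Chromatin from whole seedlings, grown for 3 days in the dark and then kept for 4 h in air or in 10 ppm ethylene, was precipitated with an antibody against histone H3 acetylated at lysine 9 and sequenced (ChIP-seq). Each treatment had 2 H3K9Ac libraries and 1 control library. All libraries came from the *ein2-5* line, which lacks function of EIN2, the membrane protein that carries the ethylene signal to the nucleus, so the air samples carry the mutation as well and no wild type is compared here. The authors pooled the libraries of a treatment before they called peaks, so there is 1 peak list per treatment, no spread between replicates and no test of a difference. Intervals given with tags cover counting error only.

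HSFs bind heat shock elements, which are inverted repeats of the triplet GAA, as trimers. In plants the family has diversified: class A factors carry an activation motif, whereas class B factors lack it and several of them repress transcription. The HSFA1 proteins stand at the head of the heat response, are held inactive by the chaperones HSP70 and HSP90 until heat draws the chaperones away, and then switch on HSFA2 and other factors. H3K9Ac is a mark of the 5′ ends of transcribed genes.

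Every one of the 10 genes carried an H3K9Ac peak in air and 9 carried one in ethylene. Among all protein-coding genes, the same rule found an air peak at 60.9% and an ethylene peak at 46.0%. HSFA1E was the one gene with a peak in air and none in ethylene, as were 15.1% of protein-coding genes. The peaks fell into different shapes. In air the HSFA1 genes carried shorter peaks close to the start. HSFA3, HSFA4A and the 3 class B genes among the 10 carried air peaks over 1000 bp long. Long peaks were not general in class B, since HSFB4 had an air peak of 268 bp and HSFB3 had none. The peak counted at HSFA2 lay wholly upstream, over a neighbouring gene, so that only 9 genes in air and 8 in ethylene had a peak over the gene itself. Each list held 11 peaks at the 10 genes.

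The heat shock elements come first, since they are the sequence through which HSFs act on each other's genes. An element of 3 units was sought as GAANNTTCNNGAA or TTCNNGAANNTTC, and one of 2 units as GAANNTTC or TTCNNGAA, on both strands of the 250 bases before each annotated start. Every 3-unit match contains 2-unit matches. A 3-unit match stood before 106 of the 27444 genes, or 0.386%, and 1 of the 10 genes, HSFA2, was among them. Genes with a 2-unit match numbered 4432, or 16.1%, against 3 of the 10, namely HSFA1E, HSFA2 and HSFA4A. The other 11 HSF genes included 2 with a 3-unit match, HSFA7A and HSFA7B. The sequences below are from the TAIR10.1 genome (RefSeq), are written 5′ to 3′ on the strand of the gene, and show the matched letters in capitals with 8 bases on either side.
HSFA2, 3 units, chr2:11135528-11135556, plus strand: ttagtaacGAAGTTTCTGGAAcattgtct
HSFA2, 2 units, chr2:11135583-11135606, plus strand: atgtcaaaGAAGCTTCaatacagt
HSFA1E, 2 units, chr3:673376-673399, plus strand: ccaccgctTTCTGGAAttaaaaaa
HSFA4A, 2 units, chr4:10350060-10350083, minus strand: tcaacaacGAATTTTCttacggcc
HSFA7A, 3 units, chr3:19264941-19264969, plus strand: ttacgaagTTCCAGAAGTTTCgactattc
HSFA7A, 3 units, chr3:19264991-19265019, plus strand: aaaaccgtTTCCAGAAGTTTCtaatttct
HSFA7B, 3 units, chr3:23399071-23399099, plus strand: agtataagTTCCGGAACTTTCtaagaaga
The 3-unit match of HSFA2 lay from -88 to -76 relative to the TSS and its separate 2-unit match from -33 to -26. The match of HSFA1E lay from -44 to -37 and that of HSFA4A from -173 to -166. A match is a description of the letters and was not tested as a binding site.

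The air list rested on 45582654 H3K9Ac tags kept of 63192903 and the ethylene list on 43572576 of 61025284, a tag being a mapped read of which 1 per position and strand was kept. The control libraries were less alike, with 13726993 tags kept in air and 4354374 in ethylene. The air list held 18314 peaks with a median length of 578 bp and the ethylene list 12864 peaks with a median of 423 bp. A called peak ends where the pile of tags falls below the level that the caller accepts at a p-value of 0.01 against the background on the scale of the smaller library. That level was a median 60.0% of the summit in air and 75.4% in ethylene. An ethylene peak was therefore cut off higher on its flanks, and the part of this in the lengths below was not tested. The labels name the control an IgG sample in the titles and protein G beads in the antibody field. The peak lists hold no measure of the *ein2-5* lesion or of transcript levels, and whole seedlings mix tissues, so that acetylation of more cells and more acetylation per cell cannot be told apart.

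**Figure D1:**
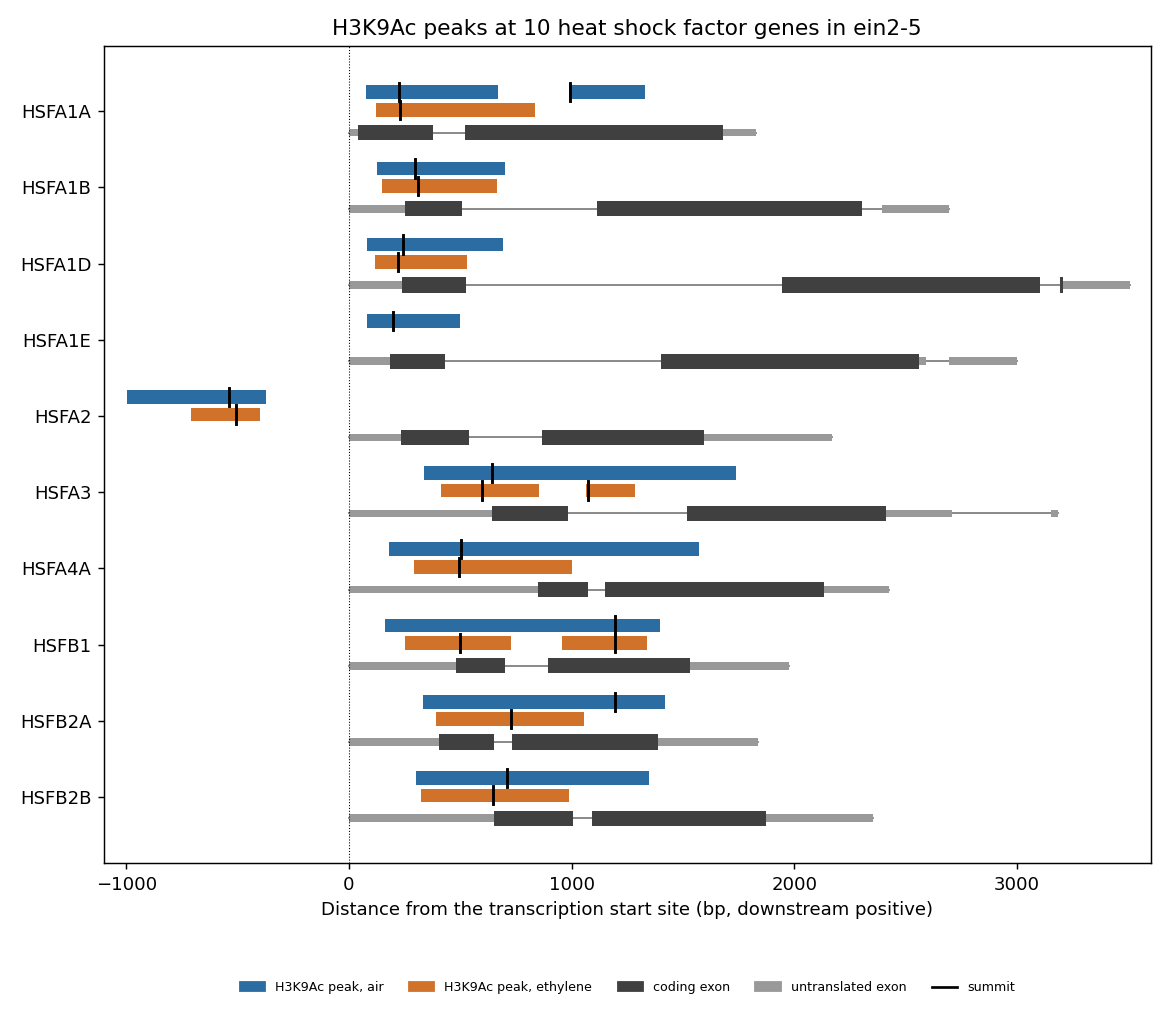
H3K9Ac peaks at the 10 HSF genes in air and ethylene, drawn by distance from the annotated TSS in bp. The summit of each peak is a short vertical line, and the exons of each gene are drawn below. The peaks of HSFA3, HSFA4A, HSFB1, HSFB2A and HSFB2B exceed 1000 bp in air, HSFA1E has none in ethylene, and the peaks counted at HSFA2 end 372 bp (air) and 400 bp (ethylene) before its TSS.

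The HSFA1 genes encode the factors that start the heat response. HSFA1A (AT4G17750, chr4:9869818-9871646, minus strand) carried a main air peak of 591 bp at chr4:9870978-9871568. The summit of this peak lay 224 bp downstream of the TSS in coding exon 1 and held 320 tags, 2.63-fold over the local background. A separate air peak of 341 bp followed at chr4:9870319-9870659 over exon 2, with only 166 tags and a fold enrichment of 1.43. In ethylene HSFA1A had 1 peak of 715 bp at chr4:9870809-9871523, again with 320 tags at its summit and a fold enrichment of 2.20. The summits of the main peak in air and ethylene lay 6 bp apart. HSFA1A was the only one of the 10 genes whose paired peak was longer in ethylene. Among 9301 genes with a single overlapping peak in each list, which leave out HSFA1A for its additional air peak, 4.04% had a longer ethylene peak. Its summed length was nonetheless lower, at 715 bp in ethylene against 932 bp in air, since the separate peak over exon 2 had no match in ethylene.

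HSFA1B (AT5G16820, chr5:5530195-5532889, plus strand) changed least in shape. Its peak ran over chr5:5530323-5530897 in air, 575 bp, and over chr5:5530345-5530857 in ethylene, 513 bp. The summit held 289 tags in air and 285 in ethylene, at 299 and 311 bp downstream of the TSS, in coding exon 1. Fold enrichment was 2.59 and 2.46.

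HSFA1D (AT1G32330, chr1:11656964-11660471, minus strand), the factor that acts together with HSFA1A and HSFA1B in heat tolerance, carried 1 peak in each list. The air peak spanned 608 bp at chr1:11659782-11660389 and the ethylene peak 417 bp at chr1:11659940-11660356. Its summits held 302 tags in air and 303 in ethylene, 23 bp apart on either side of the start codon, which lies 237 bp from the TSS. HSFA1D was the one gene of the 10 at which the strongest peak had a higher fold enrichment in ethylene, 2.70 against 2.42 in air.

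HSFA1E (AT3G02990, chr3:673428-676428, plus strand) had the lowest fold enrichment of the 10 genes in air, comparing the strongest peak of each. The peak of 421 bp at chr3:673508-673928 held 248 tags at a summit 196 bp downstream of the TSS, 10 bp past the start codon. This fold enrichment was 1.65, and 5.72% of air peaks had a lower one. The local background there was 149 tags, the highest at the 10 genes in air. A 2-unit heat shock element stood before this gene, outside the peak. No ethylene peak was called at HSFA1E, and its air peak was also lost at a fold enrichment of at least 2 and when the air list was reduced to the length of the ethylene list. The lists give no tags where no peak was called, so the size of any difference at HSFA1E cannot be given.

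The summed length of the 4 HSFA1 genes ranged from 421 to 932 bp in air, with a median of 592 bp, close to the median of 678 bp over all protein-coding genes with an air peak. In ethylene the 3 genes with a peak ranged from 417 to 715 bp. The longest air peak of each HSFA1 gene was longer than that of 15.8% (HSFA1E) to 47.7% (HSFA1D) of genes with an air peak. By this measure the HSFA1 air peaks had lengths from the lower and middle part of the genome's range. In ethylene the peak of HSFA1A was longer than 86.0% of the ethylene list, that of HSFA1B than 66.4% and that of HSFA1D than 48.3%.

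HSFA2 (AT2G26150, chr2:11135624-11137792, plus strand) is the factor that rises most strongly in heat as a target of the HSFA1 proteins and that keeps the memory of heat together with HSFA3. It had no H3K9Ac peak over its body in air or in ethylene. The peak that counted under the rule spanned 625 bp in air at chr2:11134628-11135252 and 310 bp in ethylene at chr2:11134915-11135224. It lay over *ftsh4* (AT2G26140), a gene for a mitochondrial protease transcribed in the opposite direction, with a gap of 158 bp between the genes. Measured from the TSS of *ftsh4*, the air summit lay at 378 bp with 280 tags and the ethylene summit at 348 bp with 267. The peak ended 372 bp before the TSS of HSFA2 in air and 400 bp before it in ethylene, and it covered neither of the heat shock elements of HSFA2 shown above. Judged by a summit inside the gene or the 500 bp upstream, a criterion chosen after the data were seen, HSFA2 had no peak in either list.

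HSFA3 (AT5G03720, chr5:971142-974326, minus strand), which is switched on by DREB2A and extends heat memory, carried the longest single air peak of the 10 genes. It spanned 1401 bp at chr5:972588-973988, with a summit of 261 tags lying 644 bp downstream of the TSS and 1 bp past the start codon. The annotation gives a further start of HSFA3 148 bp downstream, and distances are from the outer one. The air peak passed across intron 1 into the exon behind it. In ethylene it was replaced by a pair of peaks. The upstream one spanned 439 bp at chr5:973473-973911 with 255 tags, and its summit lay 48 bp from that of air. The other spanned 219 bp at chr5:973043-973261, inside intron 1, with 184 tags and a fold enrichment of 1.76. At both, the called level stood close below the summit, at 86.3% and 97.9% of it, against 49.6% in air. The gene CTR1, which encodes the kinase that restrains ethylene signalling, lies 33 bp upstream of HSFA3 on the same strand. The HSFA3 peaks did not reach it.

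HSFA4A (AT4G18880, chr4:10347479-10349902, minus strand) acts in oxidative stress and is phosphorylated by the kinases MPK3 and MPK6. Its air peak of 1391 bp at chr4:10348332-10349722 held 334 tags at a summit in the 5′ UTR, 502 bp downstream of the TSS and ahead of the start codon, which lies at 851 bp. In ethylene the peak spanned 708 bp at chr4:10348903-10349610 with 323 tags at a summit 6 bp away. The tags were thus nearly the same while the fold enrichment was 1.58 in ethylene against 2.82 in air. The local background was 200 tags in ethylene and 116 in air, and the called level in ethylene stood at 96.0% of the summit. Only 1.31% of ethylene peaks had a lower fold enrichment.

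The class B genes encode factors without the activation motif of class A. HSFB1 (AT4G36990, chr4:17440177-17442151, plus strand), also known as TBF1, represses heat genes and controls the switch from growth to defence. Its air peak of 1233 bp at chr4:17440340-17441572 had the highest fold enrichment at the 10 genes, 3.46, with 326 tags at a summit in coding exon 2. That summit lay 1193 bp downstream of the TSS. In ethylene the peak was called as a pair, of 479 bp at chr4:17440428-17440906 with 314 tags and of 379 bp at chr4:17441135-17441513 with 341 tags. The second of these had its summit at the same base as the air peak, and the first lay 499 bp downstream of the TSS, 16 bp past the start codon. The air list gives no tags at that upstream position, so only the downstream summit can be compared. The gap between the called peaks fell over the end of the 192-bp intron and the start of exon 2.

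HSFB2A (AT5G62020, chr5:24915807-24917643, plus strand), a repressor with a role in the development of the gametophyte, held more tags at its air summit than 99.0% of the air list. The air peak spanned 1087 bp at chr5:24916138-24917224, with 376 tags at a summit in exon 2, 1194 bp downstream of the TSS. The ethylene peak spanned 667 bp at chr5:24916198-24916864, with 351 tags at a summit in intron 1, 727 bp downstream of the TSS. The ethylene peak ended before the position of the air summit, so the summits lay 467 bp apart. Over the 9301 genes with a single overlapping peak in each list, the median distance was 27.0 bp and 0.860% had summits at least 400 bp apart. Fold enrichment was 3.26 in air and 2.17 in ethylene.

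HSFB2B (AT4G11660, chr4:7042354-7044708, plus strand), a repressor of heat and defensin genes, carried 1 peak in each list. It spanned 1045 bp at chr4:7042656-7043700 in air with 329 tags and 664 bp at chr4:7042679-7043342 in ethylene with 343 tags. The summits lay 710 and 648 bp downstream of the TSS. HSFB2B had the highest fold enrichment of the 10 genes in ethylene, 2.99, against 3.13 in air. A long non-coding RNA gene on the other strand (AT4G05910) overlaps HSFB2B, but not its peaks.

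**Figure D2:**
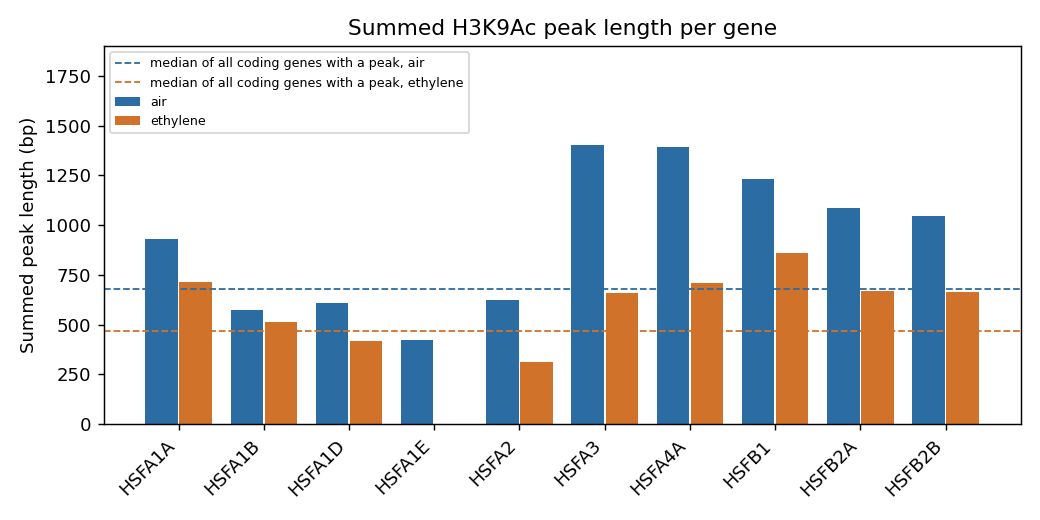
Summed length in bp of the H3K9Ac peaks at each of the 10 HSF genes in air and ethylene, with the medians over all protein-coding genes that have a peak. HSFA3, HSFA4A and the class B genes range from 1045 to 1401 bp in air and from 658 to 858 bp in ethylene, and each gene with a peak in both lists is shorter in ethylene.

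At 9 of 9 genes that had peaks in both treatments the summed length was lower in ethylene, which is also the case at 96.7% of such genes in the genome. The count at the HSF genes is that of the background. The median difference was -375 bp at the 9 genes and -259 bp over 12582 genes. In relative terms the ethylene length was a median 63.5% of the air length at the HSF genes and 65.0% over all genes, so the larger difference in bp went with longer peaks in air. Counting the longest single peak only, or with the air list reduced to the ethylene length, 8 of 9 were shorter and HSFA1A was longer.

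The longest air peak reached 1000 bp at 5 of the 10 genes, HSFA3, HSFA4A, HSFB1, HSFB2A and HSFB2B. This was the case at 15.4% of genes with an air peak. The summed air length of these 5 genes ran from 1045 to 1401 bp. Having been picked by air length, they lay above the HSFA1 genes largely through that choice. In ethylene their length ran from 658 to 858 bp and overlapped the HSFA1 range of 417 to 715 bp. The split of the genes along these lines was made after the values were seen and was given no test. A single air peak was called as 2 or more ethylene peaks at 2 genes, HSFA3 and HSFB1, and at 4.79% of genes that had peaks in both treatments.

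The edges of the peaks moved in unevenly. At genes with a single overlapping peak in each list, the ethylene peak started a median 61.0 bp inside the 5′ edge of the air peak and ended 123 bp inside its 3′ edge. The 3′ edge moved in by more than the 5′ edge at 68.4% of the 9301 genes. At HSFB2B the 5′ edge moved in by 23 bp and the 3′ edge by 358 bp. HSFB2A showed 60 and 360 bp, and HSFA4A 112 and 571 bp. At these 3 genes the ethylene peak lacked more of the downstream than of the upstream part of the air peak. At HSFA1B the moves were 22 and 40 bp and at HSFA1D 33 and 158 bp. The other 2 of the 7 HSF genes at which 1 air peak met 1 ethylene peak went the other way. The 5′ edge of the peak of HSFA1A moved in by 45 bp while its 3′ edge lay 169 bp further out in ethylene. At HSFA2, with its peak over the neighbour, the 5′ edge moved in by 287 bp and the 3′ edge by 28 bp.

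The genes with long air peaks also had their strongest air summits far into the gene. They were grouped by length after the values were seen, and the link was not tested. The strongest air summit lay a median 341 bp downstream of the TSS over 14830 genes, and 22.1% of summits lay at least 500 bp downstream. HSFA1A, HSFA1B, HSFA1D and HSFA1E had theirs between 196 and 299 bp. The summits of HSFA3, HSFA4A, HSFB1, HSFB2A and HSFB2B lay between 502 and 1194 bp. Those of HSFB1 and HSFB2A were past 1000 bp, as were 5.90% in the genome. These genes also have their start codon further from the TSS in the annotation. The start codon lies at 405 bp in HSFB2A, 483 bp in HSFB1, 643 bp in HSFA3, 652 bp in HSFB2B and 851 bp in HSFA4A, against 43 bp in HSFA1A and 251 bp in HSFA1B.

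Plant HSF genes share an intron that interrupts the part encoding the DNA-binding domain, and its length differs widely among the 10 genes. It measures 77 bp in HSFA4A, 83 bp in HSFB2A, 88 bp in HSFB2B, 147 bp in HSFA1A and 192 bp in HSFB1. It is longer in the others, with 324 bp in HSFA2, 532 bp in HSFA3, 606 bp in HSFA1B, 968 bp in HSFA1E and 1420 bp in HSFA1D. A peak was counted as reaching this intron only when it started upstream of the intron. Where this intron is under 200 bp, an air peak reached it at 5 of the 10 genes and passed it at each of the 5. Of all genes with such an intron and an air peak reaching it, 85.8% had a peak that passed it. Where the intron is 200 bp or longer, an air peak reached it at 4 genes and passed it only at HSFA3, while those of HSFA1B, HSFA1D and HSFA1E ended inside it. In the genome the share was 40.7%. In ethylene fewer peaks reached the intron. A short one was reached at 3 genes and passed at HSFA1A and HSFB2A but not at HSFB1, against 78.2% passed in the genome, while the peaks of HSFA4A and HSFB2B ended before it. A long one was reached at HSFA1B and HSFA1D and passed at neither, against 24.6% in the genome. The ethylene peak inside the intron of HSFA3 started within it and was not counted. Among the other HSF genes the air peaks of HSFC1 and HSFA6A passed a short intron and those of HSFB4, HSFA8, HSFA6B and HSFA5 ended in a long one. By its construction this count needs a longer peak where the intron is longer, and the pattern was noticed after the values were seen.

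**Figure D3:**
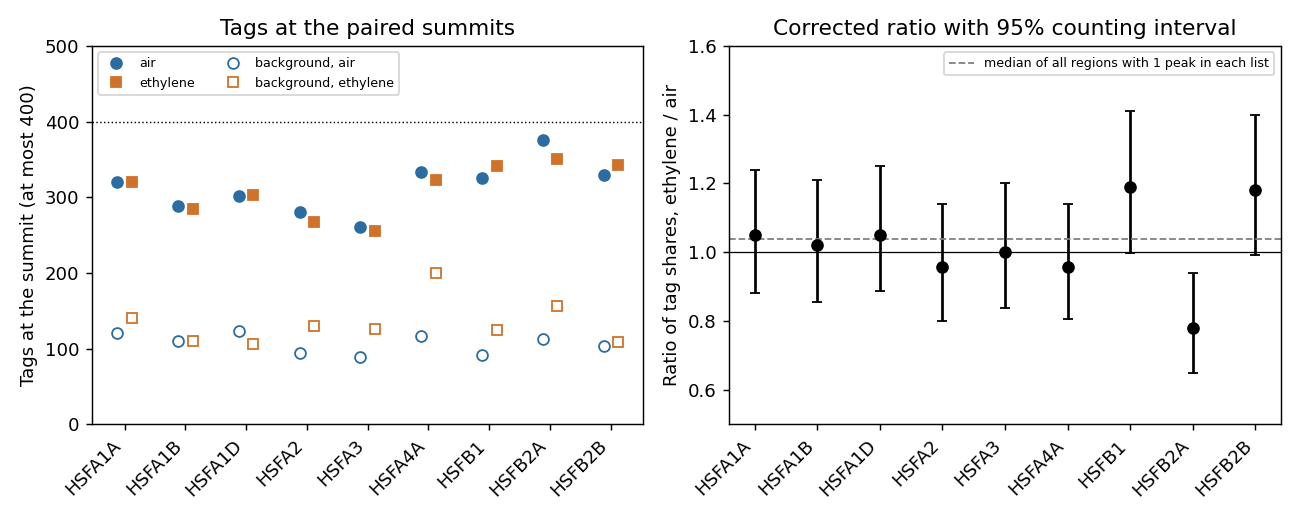
Summit tags in air and ethylene at the 9 HSF genes with a pair of summits. Tags are shown uncorrected (at most 400) beside the local background. The ratio (ethylene over air, scaled by the tags kept in each list) is after correction for the ceiling, with 95% counting intervals. HSFB2A stands highest in air, and its ratio of 0.781 is the only one whose interval leaves out 1.

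The height of the peaks, as opposed to their length, differed little between treatments. At most 400 tags can cover a point in these lists, so tags were corrected for this ceiling before ratios were taken, and ratios were scaled by the tags kept. The ratio of ethylene to air had a median of 1.02 over the 9 HSF genes with a pair of summits. Over 11700 regions with 1 peak in each list the median was 1.04, with quartiles of 0.983 and 1.10. The ratio was 1.05 (95% interval 0.881 to 1.24) at HSFA1A, where 320 tags were found in each list. It was 1.02 (0.854 to 1.21) at HSFA1B and 1.05 (0.886 to 1.25) at HSFA1D. HSFA2 and HSFA4A both had 0.957, with upper limits of 1.14, and HSFA3 had 1.00 (0.839 to 1.20). These genes lay within the counting error of equal tags, which does not show that they were equal. The ratio at HSFB1 was 1.19 (0.998 to 1.41), higher than at 94.1% of the regions, and at HSFB2B 1.18 (0.991 to 1.40), higher than at 93.2%. Without the correction for the ceiling the ratio was 1.09 at both. HSFB1, with 2 ethylene peaks under its air peak, is not itself a region with 1 peak in each list.

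HSFB2A was the exception, with a ratio of 0.781 (0.648 to 0.940). It was the 1 gene of 9 whose interval left out 1, as did 5.63% of the 11700 regions. Only 0.342% of the regions had a lower ratio. The value compares summits 467 bp apart and rests on the correction for the ceiling: without it the ratio was 0.977. With 376 of at most 400 tags, the air summit of HSFB2A stood where the correction is largest, at 1125 corrected tags (980 to 1292).

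When ordered by summit tags in air, HSFB2A with 376 came before HSFA4A with 334, HSFB2B with 329, HSFB1 with 326 and HSFA1A with 320. HSFA1D with 302, HSFA1B with 289, HSFA2 with 280, HSFA3 with 261 and HSFA1E with 248 followed. Only HSFB2A and HSFA4A differed beyond counting error as neighbours in this order, with HSFA4A at 0.640 of HSFB2A (95% interval 0.533 to 0.770) after the correction. In ethylene the order was HSFB2A with 351, HSFB2B with 343, HSFB1 with 341, HSFA4A with 323 and HSFA1A with 320. HSFA1D with 303, HSFA1B with 285, HSFA2 with 267 and HSFA3 with 255 came after them. No pair of neighbours in ethylene differed beyond counting error. The class B genes, HSFA4A and HSFA1A held the highest places in both lists, and HSFA3, with the longest air peak, stood near the end.

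**Figure D4:**
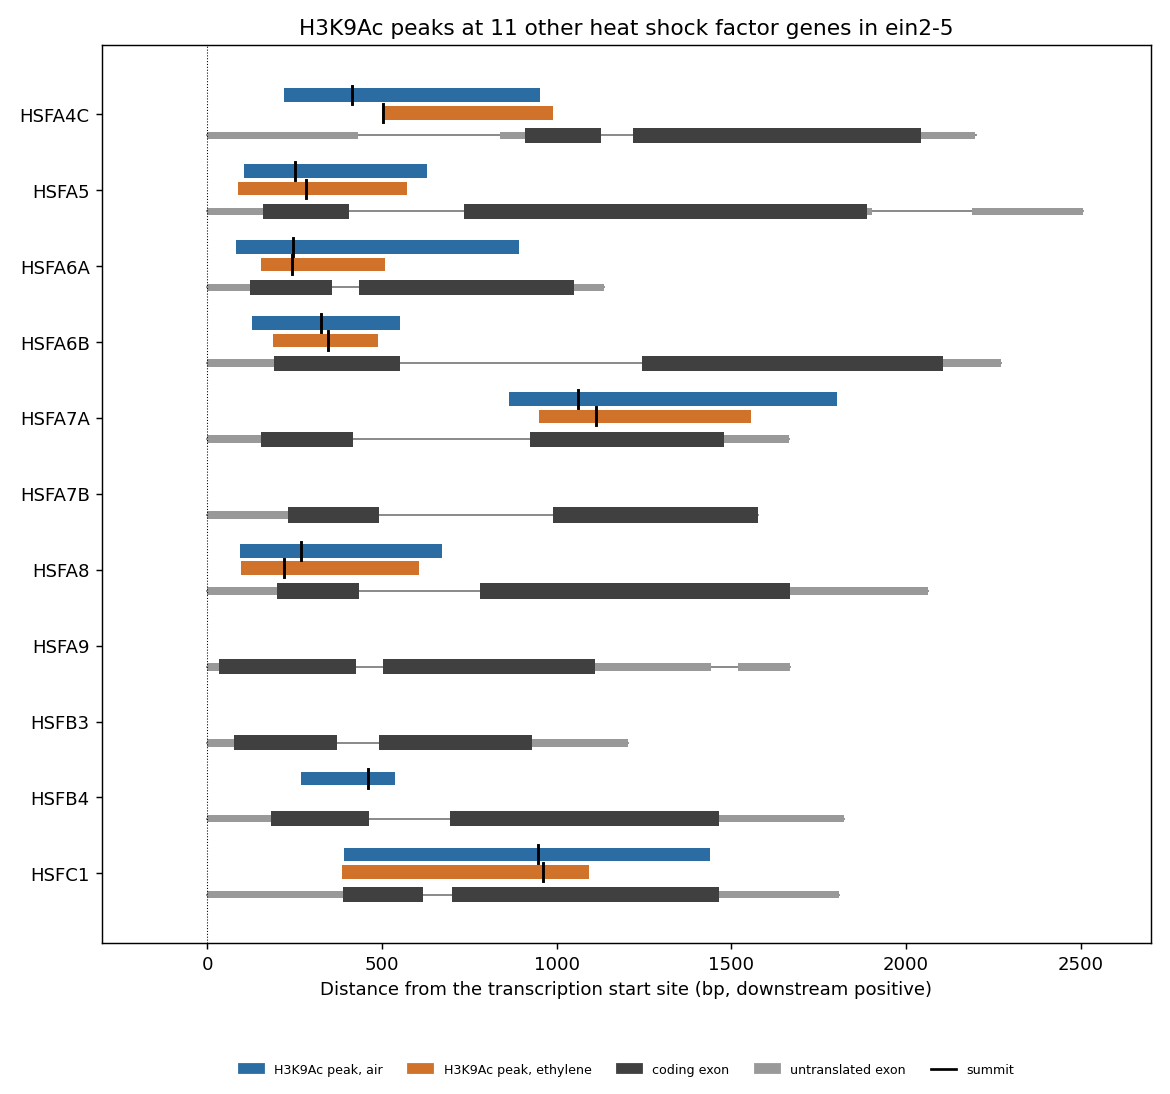
H3K9Ac peaks at the other 11 HSF genes in air and ethylene, drawn by distance from the annotated TSS in bp. HSFA7B, HSFA9 and HSFB3 have no peak, HSFB4 has one in air only, and the peak of HSFA7A lies over the downstream end of the gene.

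The other 11 HSF genes carried a peak at 8 genes in air and 7 in ethylene, so that 18 of the 21 HSF genes had one in air and 16 in ethylene. The shares over all protein-coding genes were 60.9% in air and 46.0% in ethylene, and no test was made against them. HSFA7B, HSFB3 and HSFA9, the last a factor of maturing seeds, had none in either list. HSFB3 and HSFB4 are of class B. HSFB4, which acts in root stem cell divisions, had an air peak of 268 bp with 139 tags. Its fold enrichment was 1.54, and it had no peak in ethylene. HSFC1, the single class C gene, had an air peak of 1047 bp and an ethylene peak of 707 bp, with summits of 347 and 354 tags in coding exon 2. A long non-coding RNA gene on the other strand lies under the HSFC1 peak as well. HSFA6A measured 811 and 353 bp and HSFA4C 734 and 488 bp in air and ethylene. The remaining HSFA5, HSFA6B and HSFA8 ranged from 425 to 577 bp in air.

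HSFA7A, a heat-induced class A factor, was unlike the others in the place of its peak. The air peak of 938 bp started 865 bp downstream of the TSS and ran past the end of the gene, with 350 tags at a summit 1062 bp downstream in coding exon 2. The ethylene peak of 605 bp started 951 bp downstream, with 359 tags. Of the 3 HSF genes with a 3-unit heat shock element, HSFA2 had its peak over the neighbour, HSFA7B had none, and HSFA7A had one that began well inside the gene. None of the 3 had a called H3K9Ac peak over the first 500 bp of its body in either list. Over all 106 genes with such a match, 59.4% carried an air peak over the first 500 bp, and so did 55.7% of all protein-coding genes. In ethylene the shares were 43.4% and 39.8%. Whether the match bears on the place of the peaks was not tested.

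**Figure D5:**
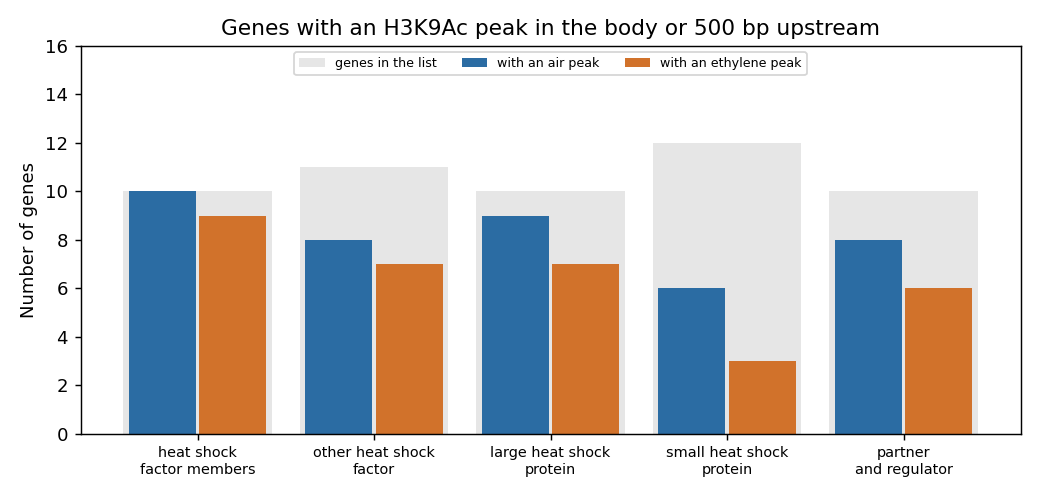
Number of genes with and without an H3K9Ac peak in air and ethylene in the 10 HSF genes, the other 11 HSF genes and the 3 related lists. Peaks are found at 9 of 10 large heat shock protein genes and at 6 of 12 small ones in air.

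The genes on which HSFs act were counted for comparison. By the same rule an air peak was found at 60.9% of all protein-coding genes and an ethylene peak at 46.0%. The counts of the lists were not tested against these shares. Large heat shock proteins are chaperones that fold or rescue proteins, and an air peak was found at 9 of their 10 genes and an ethylene peak at 7. HSC70-2 had none. The cytosolic chaperone gene HSC70-1 carried 761 bp in air and 358 bp in ethylene. HSP70B summed to 956 and 248 bp and the disaggregase gene HSP101 to 926 and 0 bp, in both cases with an air peak that lay over an upstream neighbour. The only ethylene peak of HSP70B lay over its upstream neighbour as well. HSP90.2, HSP90.3 and HSP90.4 are near-identical copies, so their peaks rest on the reads that could be placed uniquely. Small heat shock proteins, which hold unfolded proteins, are made mostly in heat or in seeds, and an air peak was found at 6 of their 12 genes and an ethylene peak at 3. HSP17.4, HSP17.6C, HSP17.8, HSP17.6II, HSP21 and HSP23.6 had no air peak. The longest, HSP17.6B with an air sum of 1542 bp and an ethylene sum of 485 bp, HSP17.6A with 845 and 0 bp and HSP23.5 with 797 and 488 bp, all had a peak shared with or belonging to an upstream neighbour. In the body of the gene alone, an air peak was found at 5 small heat shock protein genes and an ethylene peak at 2. The share of all genes by this narrower rule is not given here. Partners and regulators of HSFs had a peak at 8 of 10 genes in air and 6 in ethylene. The kinase gene MPK3 summed to 1933 and 1455 bp, partly over an upstream neighbour, MPK6 to 722 and 455 bp, and the SUMO ligase gene SIZ1 to 750 and 331 bp. The co-chaperone gene ROF2 and the regulator gene DREB2C had no peak.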

How the data were processed

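H3K9Ac ChIP-seq was deposited as peak lists, 1 for air and 1 for ethylene. Per the submitters' processing notes and the file headers, the authors mapped reads to TAIR10 with Bowtie 1.1.2, used SAMtools, pooled the H3K9Ac libraries of a treatment and called peaks against the control library with MACS2 2.1.0.20150603 at a p-value of 0.01, extending tags to 200 bp. For each peak the deposited lists give the summit's pileup signal, scaled to the smaller library, the fold enrichment (a ratio) over the local background and the −log10 p-value. The deposited −log10 q-values served for no result. No column came from another sample.

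Tags were recovered as the pileup divided by the scaling factor of each list (0.301 in air, 0.0999 in ethylene) and were whole within 0.05 at 100% of peaks. With the background recovered from the fold enrichment, the −log10 p was recomputed within 0.02 for 99.3% of air and 100% of ethylene peaks. Since the scale differs, −log10 p-values were not compared between lists. The ceiling of 400 tags was corrected for through the log of the free positions' share, and counting intervals are at 95%. The tags kept per list are known from the headers, the share of each replicate in them is not used here.

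Gene models and promoter sequences came from TAIR10.1 (RefSeq). To compare its coordinates with the TAIR10 lists, air peaks were shifted: unshifted, 66.7% covered a TSS or the 200 bp downstream, and shifted by 250 bp to the left or right, 45.9% and 45.0% did, and 0 peaks ended past a chromosome end. Distances are from the outermost annotated start. The 10 genes and the related lists were chosen with earlier results of these data known. Named were the 10 genes, the other HSF genes, and from each related list the 3 genes with the largest summed length in air and those without an air peak. Alternatives were a stricter fold enrichment of 2, a −log10 p of 5, an overlap of 100 bp, other windows and starts, a shorter air list, and summits inside the gene or 500 bp upstream, the last chosen after the data were seen. The tag ratios with their intervals and the overlap search were tested on simulated data. The simulated tags followed the same ceiling model as the correction. The other steps were not tested in this way. Python 3.11.15, pandas 2.3.3, NumPy 2.4.6, SciPy 1.17.1 and Matplotlib 3.10.9 were used. H3K14Ac, H3K23Ac, Col-0 and transcript levels were not analysed here.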

Additional observations from a re-analysis of the deposited data

How the results depend on the processing

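Of 38 values recomputed under other settings, 34 stayed within 1.5 times or within the counting error of the reported value and 0 reversed. At a fold enrichment of at least 2, the HSF genes with an ethylene peak numbered 6 instead of 9. This lies at the limit of 1.5 times and was counted as staying within it. At a −log10 p of at least 5, the HSF genes with an ethylene peak numbered 5 instead of 9. Over the 43 genes of the related lists, including the other HSF genes, those with an ethylene peak numbered 8 instead of 23 at that limit. Those with an air peak numbered 19 instead of 31 at a fold enrichment of at least 2, and 18 with the air list reduced to the length of the ethylene list. The cause was not tested. The share of all protein-coding genes at these settings is not given here, so these counts cannot be read as particular to the listed genes. The −log10 p also rests on scaled counts, with a factor of 0.0999 in ethylene and 0.301 in air. No paired analysis was possible because the replicates were pooled by the authors before peaks were called, and for the same reason no replicate could be left out. The level needed for a call is local: at the ethylene peaks of the 10 genes it ran from 180 tags at HSFA3 to 310 at HSFA4A, so a gene without a called peak, such as HSFA1E in ethylene, may still hold many tags.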
